A study of Mus musculus with 6 samples.

Results

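The EGF receptor family and its ligands were followed by name through all 6 RNA libraries: the 4 receptor genes Egfr, Erbb2, Erbb3 and Erbb4 and the 6 ligand genes Hbegf, Areg, Ereg, Tgfa, Btc and Nrg1. All 10 symbols were found among the 28043 genes of the tables. RNA came from primary retinal pigment epithelium (RPE) cells, the pigmented monolayer behind the photoreceptors. There were 3 libraries from normal mice (Normal) and 3 from mice with proliferative vitreoretinopathy (PVR), which the series title calls traumatic. PVR is a scarring disorder in which cells that have left their layer form contractile membranes in the injured eye. The strain, age and sex of the mice and the way PVR was induced are not stated in the labels. Nor do they say whether each replicate was its own animal or culture, and p-values reflect only library-to-library spread, part or all of which may be technical. Each library held 15269983 to 19173187 gene reads, and values are normalised read counts. Log2 changes are differences of group means of log2(normalised count + 1), with positive values higher in PVR. The added 1 shrinks the changes of scarce transcripts.

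Each receptor of the family spans the cell membrane and carries a kinase domain inside the cell. Ligand binding pairs receptors with each other, and the pairs activate the RAS-ERK and PI3K-AKT cascades, which drive proliferation, migration and survival. The ligands are made as membrane-bound precursors that proteases of the ADAM family release, and EGF receptor ligands are known to make RPE cells divide and move.

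Of the 9 members that passed the filter on low reads, Egfr, Hbegf, Areg, Ereg and Nrg1 rose in PVR and Btc fell. Calls are by limma at a Benjamini-Hochberg adjusted p under 0.05 over all 15766 genes tested. Over all genes tested, 17.9% were called higher and 12.9% lower. The median log2 change of the 9 members was 1.02, beside -0.02 over all genes. Areg, Ereg and Nrg1, which are part of this median, reached 10 reads only in PVR libraries. They thus passed the filter (minimum count 10) through the group where they were high, and their rises are not independent of it. Erbb2, Erbb3 and Tgfa did not pass the test. Erbb4 was left out by the filter, since only Normal library 2 and PVR library 2 reached 10 reads for it. The 3 PVR libraries lay wholly above the 3 Normal libraries for Egfr, Erbb2, Hbegf, Areg, Ereg and Nrg1, a pattern that 24.7% of all genes tested showed, and wholly below them for Btc, as 23.3% of all genes did.

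**Figure D1:**
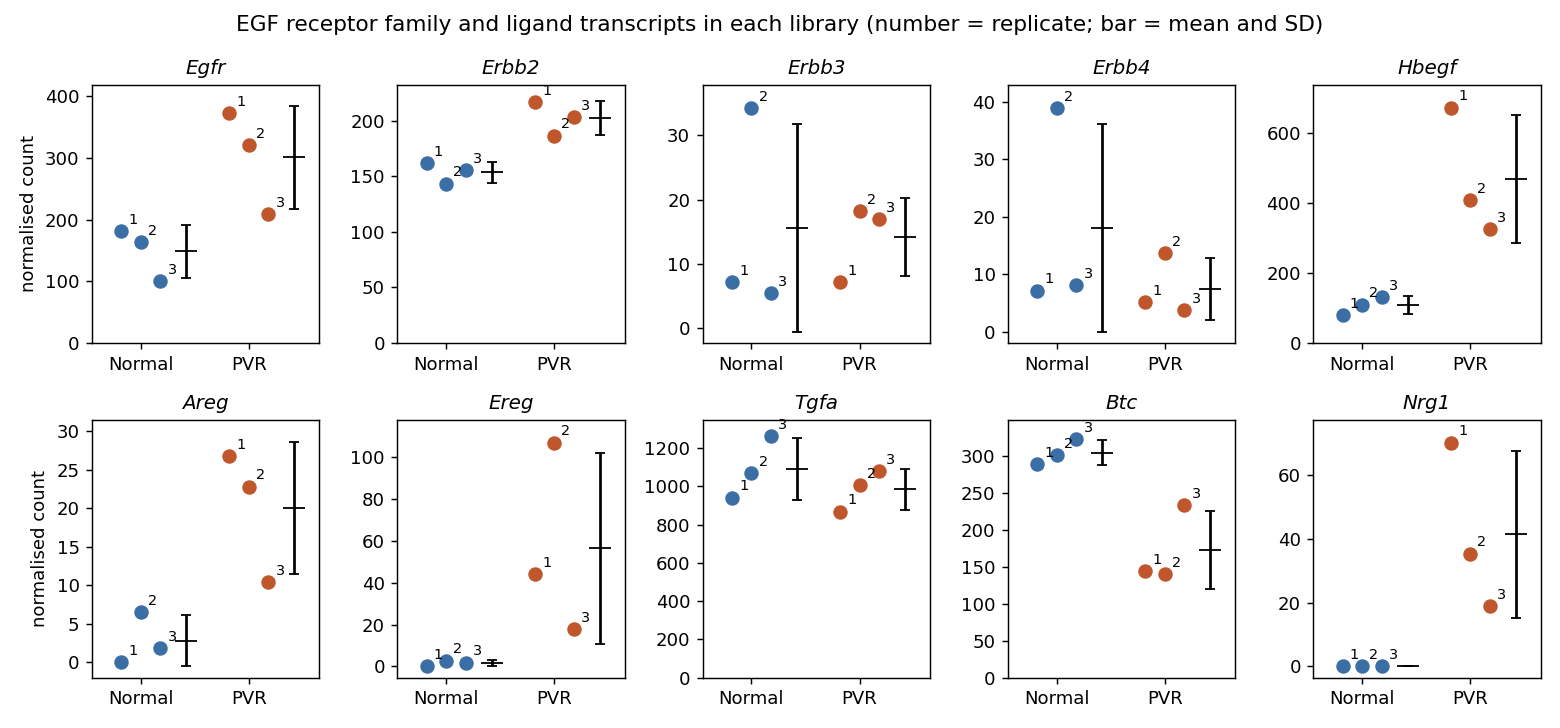
Normalised counts of each of the 10 genes on the vertical axis (linear, a separate scale for each gene), with 1 point per library, the replicate number beside it, and the mean with its SD to the right of each group. Ereg, Areg and Nrg1 were low or at 0 in Normal and Hbegf was at 80.4 to 131, and each was higher in every PVR library. Erbb3 and Erbb4 had their highest value in Normal library 2.

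RefSeq promoter windows (GRCm38.p6, 250 bases before to 50 bases after the start of transcription) matched 6 of the 10 members: Egfr, Erbb2, Erbb4, Areg, Tgfa and Btc. Those of Areg, a ligand gene that rose, Btc, a ligand gene on the same chromosome that fell, and Egfr, the receptor gene that rose, are printed 5′ to 3′ on the strand of the gene. Capitals mark matches to TGACGTC (the cyclic AMP response element), TGANTCA (the AP-1 site), GGGCGG (the GC box) or TATAAA (the TATA box), each searched on both strands. The windows are chr5:91139349-91139648 (plus strand) for Areg, chr5:91402945-91403244 (minus strand) for Btc and chr11:16751953-16752252 (plus strand) for Egfr.
Areg: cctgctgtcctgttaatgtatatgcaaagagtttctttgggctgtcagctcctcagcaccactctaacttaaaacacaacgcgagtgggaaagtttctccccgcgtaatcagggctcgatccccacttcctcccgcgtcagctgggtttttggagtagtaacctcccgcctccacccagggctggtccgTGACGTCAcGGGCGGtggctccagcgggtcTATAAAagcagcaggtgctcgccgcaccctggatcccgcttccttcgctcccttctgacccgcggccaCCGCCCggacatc
Btc: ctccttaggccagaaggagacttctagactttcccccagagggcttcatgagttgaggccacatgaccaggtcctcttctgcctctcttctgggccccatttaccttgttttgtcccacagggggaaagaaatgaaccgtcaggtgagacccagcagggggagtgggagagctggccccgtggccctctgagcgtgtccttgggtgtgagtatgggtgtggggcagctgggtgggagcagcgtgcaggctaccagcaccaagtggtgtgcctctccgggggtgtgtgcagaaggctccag
Egfr: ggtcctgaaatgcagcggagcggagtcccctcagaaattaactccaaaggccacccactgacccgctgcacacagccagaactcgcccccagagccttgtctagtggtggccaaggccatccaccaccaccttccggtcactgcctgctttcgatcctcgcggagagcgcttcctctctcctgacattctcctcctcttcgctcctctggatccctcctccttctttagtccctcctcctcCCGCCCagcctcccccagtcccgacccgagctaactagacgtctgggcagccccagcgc
The Areg window held the cyclic AMP response element 61 bases before the start. The letters at this site, TGACGTCA, read the same on either strand, so TGACGTC was matched on both strands at overlapping positions. Areg also held a TATA box 31 bases before the start and 2 GC boxes. Of all 32851 promoter windows of this length, 3.21% held the cyclic AMP response element, 13.6% the TATA box and 35.7% the GC box. The Btc window held none of the 4 motifs and the Egfr window 1 GC box. The AP-1 letters were in none of the 6 windows and in 7.81% of all windows. These are matches of letters, and nothing was measured here about factors bound to them.

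Among the receptors, Egfr was the gene that rose. Egfr (chromosome 11, 16752203 to 16918158 on GRCm38) encodes the receptor for EGF, TGF-alpha, amphiregulin and related ligands. Normal libraries 1 to 3 held 181, 164 and 101 normalised counts and PVR libraries 1 to 3 held 373, 321 and 209.7. The groups did not overlap, although PVR library 3 lay nearer Normal library 1 than PVR library 1. The means were 149 ± 42.5 and 301 ± 83.4 (SD, n = 3 per group), a log2 change of 1.02 ± 0.28 (SE; limma adjusted p = 0.0235). The call was lost without Normal replicate 3 (log2 change 0.76, limma adjusted p = 0.0604), PVR replicate 1 (0.84, adjusted p = 0.0751) or PVR replicate 2 (0.95, adjusted p = 0.0847).

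Erbb2 (chromosome 11, 98412470 to 98437716) encodes the receptor that has no known soluble ligand and acts as the partner of the other receptors. It had 162, 144 and 156 normalised counts in Normal and 217, 187 and 203 in PVR. Every PVR value lay above every Normal value, by a small margin that did not pass the test (154 ± 9.32 against 202 ± 15.3, log2 change 0.39, 95% confidence interval 0.045 to 0.74, limma adjusted p = 0.0835). Erbb2 was not called under any of the 19 alternative settings.

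The neuregulin receptor genes were scarce. Erbb3 (chromosome 10, 128567523 to 128589652) encodes a receptor with a weak kinase that signals through its partner. It rested on 7, 37 and 6 reads in Normal and 7, 16 and 18 in PVR, that is 7.21, 34.3 and 5.44 against 7.21, 18.2 and 17.0 normalised counts. The groups overlapped, Normal library 2 was the highest of all, and no difference was detectable at this depth (log2 change 0.20, 95% confidence interval -1.34 to 1.74, limma adjusted p = 0.85). The sign of that change turned with the libraries and the tool: it was 0.96 without Normal replicate 2 and -0.16 by edgeR. Erbb4 (chromosome 1, 68032186 to 69108059), the receptor for neuregulins and HB-EGF, had 7, 42 and 9 reads in Normal and 5, 12 and 4 in PVR. With no filter on low reads its log2 change was -0.93 (limma adjusted p = 0.389), with overlapping groups.

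Normal library 2 also stood apart in keratin genes of stratified surface epithelium. Krt5 was at 1550.3 normalised counts there and at 0 and 0.906 in Normal libraries 1 and 3, and Krt14 at 241 against 0 in both others. The 8 surface epithelium markers summed to 3102 in Normal library 2 and to between 114 and 237 in the other 5 libraries. Their part in the Erbb3 and Erbb4 values of that library was not tested. Without Normal replicate 2, 5 members rose and 1 fell.

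Hbegf was the most abundant of the ligand transcripts that rose. Hbegf (chromosome 18, 36504927 to 36515805) encodes heparin-binding EGF-like growth factor, which activates EGFR and ErbB4. It had 80.4, 109 and 131 normalised counts in Normal and 672, 408 and 325 in PVR. The lowest PVR library was far above the highest Normal library, and PVR library 1 was the highest. The means were 107 ± 25.6 and 468 ± 182, a log2 change of 2.08 ± 0.29 (SE; limma adjusted p = 0.00099). The call was kept under all 19 alternatives, with log2 changes of 1.78 to 2.47.

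Areg and Ereg went from almost no reads to a low level. Areg (chromosome 5, 91139599 to 91148432) encodes amphiregulin, an EGFR ligand made in tissue repair. It rested on 0, 7 and 2 reads in Normal and 26, 20 and 11 in PVR, or 0, 6.48 and 1.81 against 26.8, 22.8 and 10.4 normalised counts. The groups did not overlap, and PVR library 3 was only slightly above Normal library 2. The ratio of the summed reads, scaled by the size factors, was 6.87 (95% interval 3.38 to 15.8, covering counting error only). The log2 change was 2.83 (SE 0.78, limma adjusted p = 0.0211). Over the alternatives that kept the gene the log2 change ranged from 1.71 to 3.94. This call was lost without Normal replicate 1 (log2 change 2.09, adjusted p = 0.0554) or 3 (0.054), without PVR replicate 1 (0.0824) or 2 (0.075), and with replicates 1 and 2 only (0.059). Areg had too few reads for a filter at 1 CPM in 3 libraries.

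Ereg (chromosome 5, 91074622 to 91093646) encodes epiregulin, which binds EGFR and ErbB4. It rested on 0, 3 and 2 reads in Normal and 43, 94 and 19 in PVR. In normalised counts these were 0, 2.78 and 1.81 against 44.3, 107 and 17.9, so all PVR libraries were higher, with a wide spread among them. The ratio of the summed reads was 33.8 (95% interval 14.2 to 106, counting error only), the log2 change 4.36 (SE 0.74, limma adjusted p = 0.00197). Ereg was called under all 19 alternatives. It shares 3.42% of its exon bases with Gm19610 on the opposite strand, and whether reads were counted by strand is not stated.

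Nrg1 was not detected in Normal. Nrg1 (chromosome 8, 31814551 to 32884029) encodes neuregulin 1, the ligand of ErbB3 and ErbB4. It had 0 reads in each Normal library, where a count of 0 allows up to 3 reads (95% bound, counting error only) or 2.72 to 3.09 normalised counts. PVR libraries 1 to 3 had 68, 31 and 20 reads, or 70.0, 35.3 and 18.9 normalised counts. Taken against 3 reads per Normal library (mean 2.86), the PVR mean of 41.4 ± 26.1 was at least 14.5-fold higher. That bound covers the Normal counts only and leaves out the spread among the PVR libraries. The limma adjusted p was 0.000377, and the gene was called under all 19 alternatives. Its receptors Erbb3 and Erbb4 had between 4 and 18 reads in the same PVR libraries.

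Tgfa and Btc were the ligand transcripts that normal RPE libraries held in quantity. Tgfa (chromosome 6, 86195223 to 86275719) encodes TGF-alpha, an EGFR ligand. It had 941, 1069 and 1264 normalised counts in Normal and 868, 1008 and 1078 in PVR, with overlapping groups. It did not pass the test (log2 change -0.14, 95% confidence interval -0.44 to 0.16, limma adjusted p = 0.455).

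Btc (chromosome 5, 91357261 to 91402994) encodes betacellulin, which binds EGFR and ErbB4. It had 289, 301 and 322 normalised counts in Normal and 144, 140.1 and 233 in PVR. The PVR libraries were all lower, and PVR library 3 lay nearest to Normal. The means were 304 ± 16.8 and 173 ± 52.7, a log2 change of -0.85 ± 0.20 (SE; limma adjusted p = 0.0111). The call was lost only against a minimum change of 1.5-fold (adjusted p = 0.563).

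**Figure D2:**
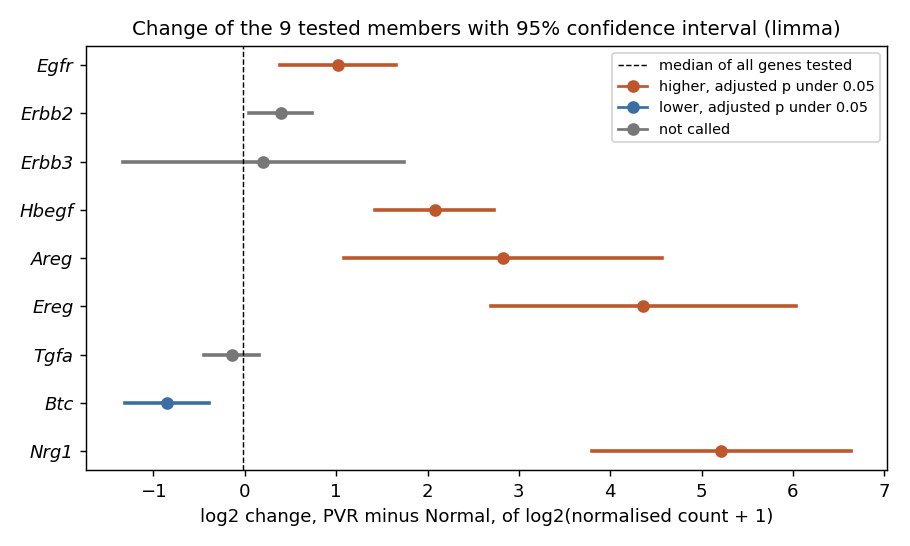
Log2 change with its 95% confidence interval (horizontal axis, from limma) for the 9 tested genes, coloured by call, with the median of all genes tested as a dashed line. The intervals of Areg and Ereg are the widest, and those of Tgfa and Erbb3 include 0.

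Epgn, Ereg, Areg and Btc are neighbours on chromosome 5, within 376 kb (91027464 to 91402994), and no other protein-coding gene is annotated in that span. Areg and Ereg lie 46.0 kb apart and both rose, whereas Btc, 209 kb beyond Areg on the opposite strand, fell. Epgn, which encodes the EGFR ligand epigen, had 2 or 3 reads in each Normal library and 0, 1 and 0 in PVR and was not tested.

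The makeup of the ligand pool was compared per kilobase of annotated exon, since a longer transcript yields more reads. On this scale Tgfa led in Normal (168 ± 25.1 per kb), followed without overlap of the library ranges by Btc (67.2 ± 3.71), Erbb2 (29.5 ± 1.79), Hbegf (22.1 ± 5.29) and Egfr (13.1 ± 3.75). Erbb3, Areg, Erbb4, Ereg and Nrg1 followed at 2.60 or less per kb, with overlapping ranges. In PVR, Hbegf (96.9 ± 37.5 per kb) was second to Tgfa (152 ± 16.4), with overlapping ranges. Erbb2 (38.8 ± 2.93), Btc (38.2 ± 11.7) and Egfr (26.6 ± 7.36) came next, and Btc overlapped both.

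Of the summed ligand level per kb, Hbegf made up 7.38%, 8.70% and 9.21% in Normal libraries 1 to 3 and 40.4%, 26.5% and 22.4% in PVR. Tgfa made up 64.3%, 63.4% and 66.0% in Normal and 38.9%, 48.7% and 55.4% in PVR, and Btc 28.3%, 25.6% and 24.1% against 9.26%, 9.72% and 17.2%. None of these 3 shares overlapped between the groups, and PVR library 3 was nearest to Normal for each. The shares are parts of the same sum, so a larger Hbegf share lowers the others. The level of Tgfa itself overlapped between the groups and was not called (log2 change -0.14, limma adjusted p = 0.455). Among levels of single genes, 24.7% of all genes tested lay wholly higher in PVR and 23.3% wholly lower. The ligand sum itself was 225 to 295 per kb in Normal and 299.6 to 344 in PVR. Of the receptor sum, Egfr made up 22.0% to 32.8% in Normal and 30.5% to 43.2% in PVR, and Erbb2 54.2% to 74.1% and 52.5% to 64.3%, with overlapping ranges. These shares are descriptions, and exons of all annotated isoforms enter the lengths.

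**Figure D3:**
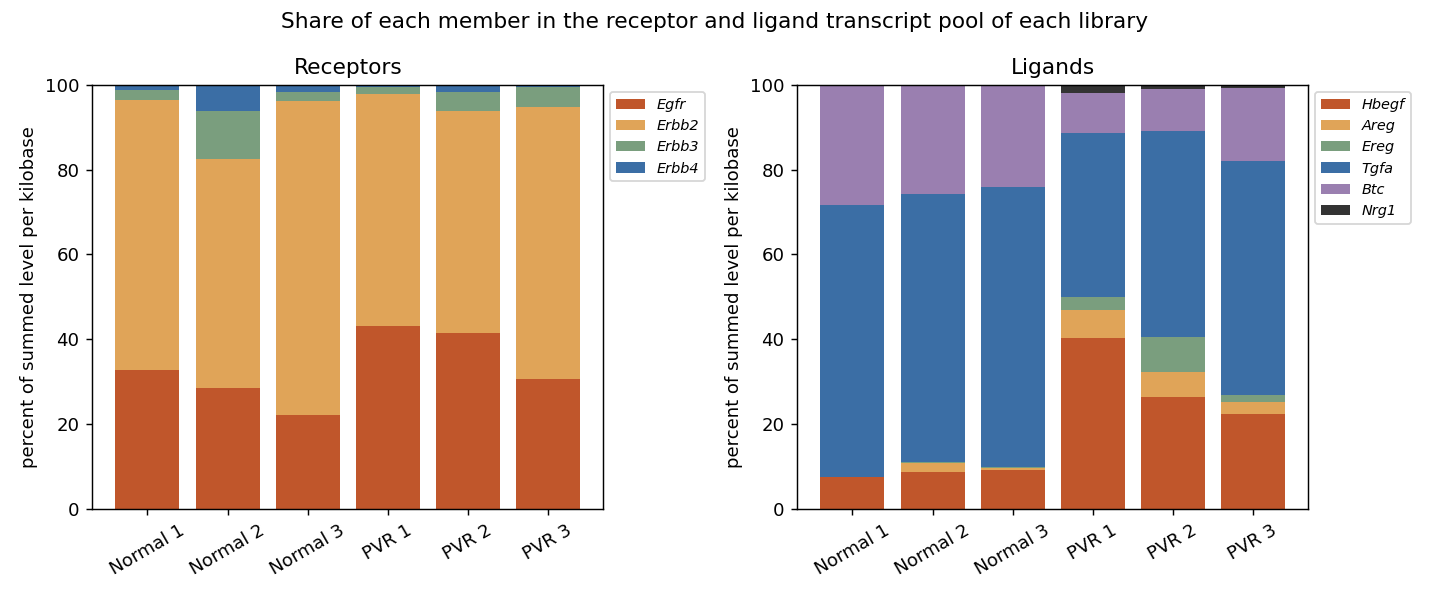
Share of each gene in the summed level per kilobase (vertical axis, percent) of the 4 receptor genes (left) and the 6 ligand genes (right), 1 bar per library. Hbegf takes 7.38% to 9.21% of the ligand level in Normal and 22.4% to 40.4% in PVR, while Tgfa and Btc take less in PVR.

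The PVR group, in which Hbegf, Areg, Ereg and Nrg1 were higher, also held more transcripts of immune and stromal cells. The libraries within a group did not keep 1 order. Normal library 1 had the lowest Hbegf of its group but the highest sums of stromal markers and of macrophage markers without Csf1r. PVR library 1 had the highest Hbegf, Areg and Nrg1 of its group, and PVR library 2 the highest Ereg. PVR library 2 also had the highest sums. For macrophage markers without Csf1r these were 37088 there and 36184 in PVR library 1, and for stromal markers 26461 and 24099. Of 16 macrophage and microglia markers, 15 rose and 1, the receptor gene Csf1r, fell. Their sum was 10470 to 11978 normalised counts in Normal and 23324 to 44663 in PVR. Without Csf1r, which was abundant in Normal, the sums were 797 to 1522 and 15089 to 37088, and no marker of the list was at 0 in every library. Ptprc, which encodes the leukocyte antigen CD45, had 35.0, 40.8 and 20.8 normalised counts in Normal and 648, 893 and 342 in PVR. Of 9 fibroblast and stromal markers, 8 rose, with sums of 3069 to 5235 in Normal and 17291 to 26461 in PVR.

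Among the PVR libraries, the third had the lowest macrophage and stromal sums and also the lowest Egfr, Hbegf, Areg, Ereg and Nrg1 and the highest Btc. Of 6 neutrophil markers in the tables, the 3 tested rose, with sums of 9.06 to 26.8 in Normal and 194 to 449 in PVR. Csf3r alone made up 77.0% of that sum over all libraries. The markers with too few reads to be tested stayed scarce in PVR libraries 1 to 3: Cxcr2 had 10, 6 and 2 reads, Retnlg 10, 2 and 0, and Mpo 2, 0 and 0. The 7 mast cell markers summed to 495 to 546 in Normal and 258 to 302 in PVR. Kit, a gene that melanocytes share, made up 90.8% of that sum over all libraries and fell (limma adjusted p = 0.000186). Without Kit, the sums were 1.03 to 16.7 in Normal and 35.9 to 108 in PVR. Only 1 of those 6 genes, Mcpt4, was tested, and it rose. Of 12 RPE markers, 9 fell and 0 rose, and their sum was 917787 to 1001319.7 in Normal and 639728 to 711978 in PVR. Ttr, which made up 34.9% of that sum over all libraries, was not called, though every PVR library lay above every Normal library. The lists hold different genes, so their sums cannot be set against each other as amounts of cells. The part of other cell types in the members' changes was not tested, and in bulk RNA fewer cells of a type and less RNA per cell cannot be told apart.

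**Figure D4:**
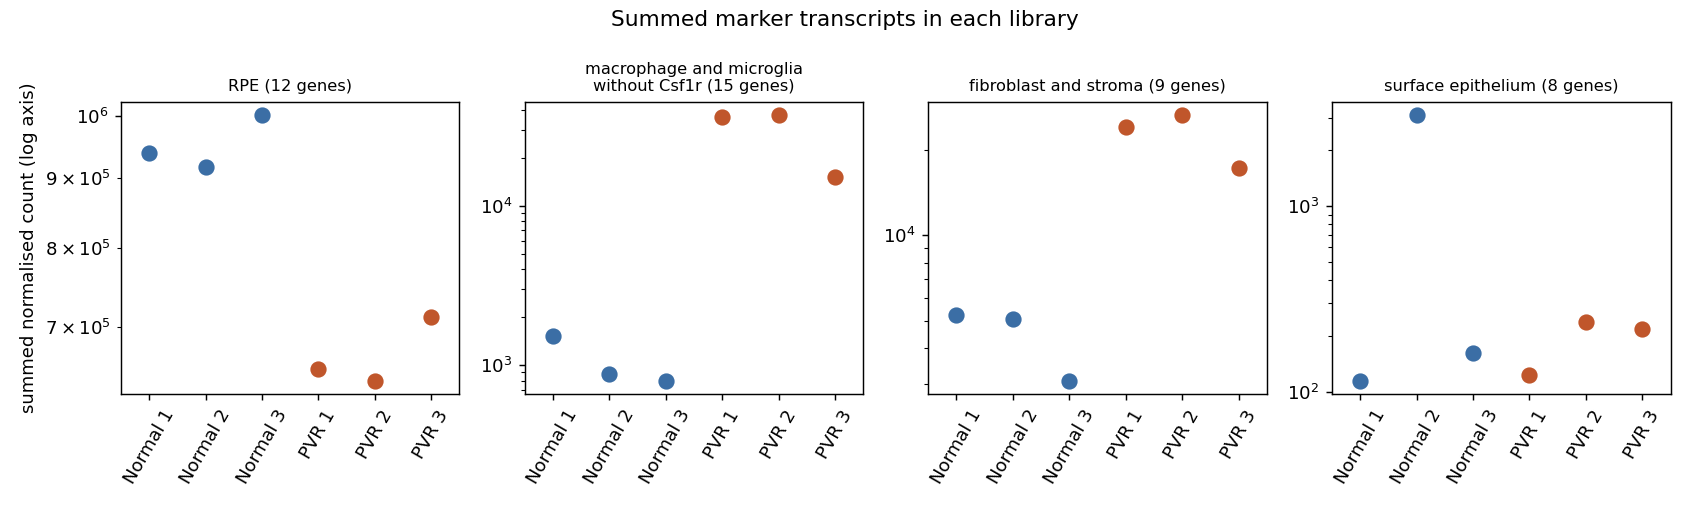
Summed normalised counts (vertical axes, logarithmic, a separate scale in each panel) of 4 marker lists in each library. Macrophage and stromal markers are higher in all PVR libraries, RPE markers lower, and surface epithelium markers stand out in Normal library 2.

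Genes that act around the receptors were counted from 5 lists, each gene once and members left out. Of 81 tested genes 26 rose and 11 fell, with a median log2 change of 0.12, beside the 17.9% and 12.9% of all genes tested. The lists were chosen with earlier results of these libraries known, and no list was tested as a set.

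The genes for release and presentation of ligands rose more often than they fell: 10 of 15 rose and 1 fell, with a median log2 change of 0.85. The shares over all genes tested were 17.9% and 12.9%. Cd9, a tetraspanin that associates with the HB-EGF precursor, went from 944 ± 47.9 to 3292 ± 534, a log2 change of 1.79 (limma adjusted p = 3.28e-05). Rhbdf2, which encodes the iRhom2 partner of the sheddase ADAM17, rose from 251 ± 75.2 to 1045 ± 272, and Rhbdf1, its relative, from 508 ± 57.7 to 919.7 ± 135. The metalloproteinase genes Adam12 (2.22 ± 0.501 to 81.3 ± 51.9) and Adam19 (21.2 ± 6.70 to 208 ± 113) rose too.

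Adam17, the main sheddase of several EGFR ligands, had 559, 708 and 656 normalised counts in Normal and 902, 1098 and 784 in PVR. It was called higher (log2 change 0.53, limma adjusted p = 0.0217), but not without Normal replicate 1 (adjusted p = 0.0887) or 3 (0.0527) or PVR replicate 2 (0.0731). Adam10, the sheddase of betacellulin, was not called (1795 ± 84.6 against 2070.2 ± 231, limma adjusted p = 0.199). The other genes of the list that rose were Adam8, Adam15, Frmd8 and Cd44. Timp3, an inhibitor of ADAM17 and of matrix metalloproteinases, was the gene that fell (88719 ± 10870.1 to 55285 ± 6492, log2 change -0.68). Exon bases are shared with a gene on the opposite strand by Timp3 (21.3%, with Syn3), Adam15 (20.6%, with 4731419I09Rik), Cd9 (10.7%, with Gm26728) and Frmd8 (7.63%, with Frmd8os). Adam8, Cd44 and Timp3 are not particular to EGF signalling. Macrophage markers rose in the same libraries, and their part in the rises of Adam8 and Cd44 or the fall of Timp3 was not tested.

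Genes that restrain the receptors or ERK moved both ways, with 6 of 20 higher, 4 lower and a median log2 change of 0.15. Among all genes tested, 17.9% were higher and 12.9% lower. Spry1, a Sprouty inhibitor of receptor signalling to ERK, had 1644, 1435 and 1950.4 normalised counts in Normal and 482, 599 and 761 in PVR (log2 change -1.46, limma adjusted p = 0.000501). The groups did not overlap. The ERK phosphatase genes Dusp6 (7397 ± 974 to 4650.1 ± 736) and Dusp4 (12062 ± 3201 to 6696 ± 681) and Lrig2 (936 ± 93.2 to 695 ± 64.2) fell as well. Those that rose included Lrig1, which promotes loss of EGFR from the cell surface (133 ± 37.9 to 330.4 ± 57.5), the ubiquitin ligase gene Cbl (837 ± 23.7 to 1274 ± 274), Spred3 (494 ± 55.6 to 747 ± 49.8) and the receptor phosphatase gene Ptprj (1707 ± 44.9 to 2264 ± 168). Ptprk and the ERK phosphatase gene Dusp5 (181 ± 43.2 to 1043 ± 659) also rose.

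Errfi1, the feedback inhibitor of EGFR, was not called (1699.6 ± 299 against 2274 ± 1005, limma adjusted p = 0.439). Dusp4 lost its call without Normal replicate 3 (adjusted p = 0.0513) or PVR replicate 2 (0.0544), and Dusp5 without PVR replicate 2 (0.0534). Lrig2 lost it without Normal replicate 1 (0.0672), Normal replicate 3 (0.0817), PVR replicate 1 (0.0632) or PVR replicate 2 (0.0648). Ptprk lost it without any single library except Normal replicate 2 (0.061 to 0.0806). With replicates 1 and 2 only, Dusp4 (0.0996), Lrig2 (0.052) and Ptprk (0.165) were not called, and Dusp5 was not called with no filter (0.0538). Spry1 shares 24.4% of its exon bases with Gm42922 on the other strand.

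Of the adaptors and kinases below the receptors, 3 of 27 were higher and 4 lower, with a median log2 change of -0.02, in a data set where 30.8% of all genes tested were called in either direction. Eps8, an EGFR substrate that regulates actin, went from 32.3 ± 9.73 to 151 ± 44.2, a rise of 2.20 on the log2 scale (limma adjusted p = 0.000907). Akt1 rose from 1439 ± 49.0 to 2032 ± 168. Nras was called higher at 990.2 ± 99.3 against 1289 ± 165, with overlapping groups, and lost the call without Normal replicate 1 (adjusted p = 0.146), Normal replicate 2 (0.133), PVR replicate 1 (0.134) or PVR replicate 2 (0.137), with the replicate number as a block (0.0558), under scaling to library totals (0.0667), and without Normal replicate 2 and PVR replicate 3 together (0.0516). Map2k1, which encodes the ERK kinase MEK1, fell from 3668 ± 213 to 2547 ± 363, and Pik3cb (1751 ± 144 to 1292 ± 89.2) and Araf (3402 ± 218 to 2564 ± 165) fell too. Araf lost its call without Normal replicate 1 (adjusted p = 0.0521) and Pik3cb with replicates 1 and 2 only (0.0805).

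Of 19 genes known to respond to ERK, members left out, 7 rose and 3 fell, with a median log2 change of 0.35. For comparison, 17.9% of all genes tested rose and 12.9% fell. Klf10 (294 ± 23.3 to 755 ± 128, limma adjusted p = 0.000228), Myc (60.3 ± 6.17 to 419 ± 266), the urokinase gene Plau (68.2 ± 33.2 to 659 ± 258) and its receptor gene Plaur (50.9 ± 25.5 to 601 ± 376) rose, as did Egr3, Ier3 and Fosl1. Ccnd1, which encodes cyclin D1, fell from 4979.6 ± 294 to 2879.8 ± 389 (log2 change -0.80), and the ETS factor gene Etv5 from 2376 ± 136 to 1874 ± 245. Dusp6, which is on this list too, was the third to fall.

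The immediate early genes Fos and Egr1 were not called. Fos had 45877, 11619 and 37350.1 normalised counts in Normal and 22892, 20477 and 23623 in PVR, and Egr1 had 49343, 19222 and 53265 against 32439.9, 21309 and 27884. Normal library 2 held the lowest value of each. Without Normal replicate 2 both were called lower (limma adjusted p = 0.0023 for Fos and 0.00477 for Egr1), and 6 genes of the list fell. Etv5 lost its call without any single library except PVR replicate 2 (adjusted p 0.071 to 0.143) and Fosl1 without any single library except Normal replicate 2 or PVR replicate 3 (0.0501 to 0.0805). Etv5 also lost it with replicates 1 and 2 only (0.205) and without Normal replicate 2 and PVR replicate 3 together (0.176). Fosl1 was not called with the replicate number as a block (0.106), by limma-voom (0.0948), with no filter (0.0975) or with replicates 1 and 2 only (0.0627), and Ier3 not without PVR replicate 2 (0.0551). Fosl1 shares 57.2% of its exon bases with Ccdc85b on the other strand, and Ccnd1 23.4% with LTO1.

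**Figure D5:**
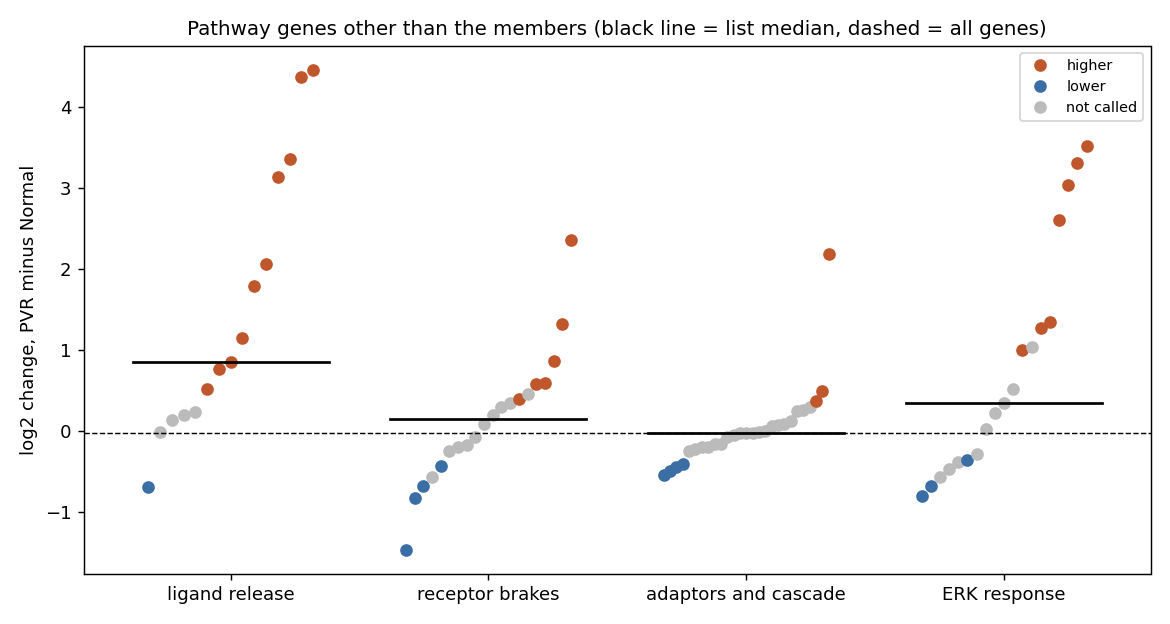
Log2 change (vertical axis) of each tested gene in 4 pathway lists, ordered by size within a list and coloured by call, with the list median as a black line and the median of all genes as a dashed line. The median is 0.85 for ligand release, 0.15 for receptor brakes, -0.02 for adaptors and cascade and 0.35 for the ERK response.

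Of the remaining EGF family ligands, Egf (59.4 ± 11.4 against 56.8 ± 28.1) and Nrg4 (20.3 ± 5.30 against 20.8 ± 5.51) did not pass the test. Nrg2, with 1 to 20 reads per library, was not tested, and Nrg3 was not analysed here.

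Likeness of pattern was measured as Pearson's r of log2 values over the 6 libraries, which fall into 2 groups, so that many genes reach a high r. Nabp1 (r = 0.992), Slfn9 (0.991) and Trim8 (0.990) were most like Egfr, for which 201 of 13510 genes reached 0.95. Pttg1ip (0.9996), Ube2l6 (0.998) and Fam129b (0.998) were most like Hbegf, with 682 such genes. Kbtbd11 (0.990), Ces2g (0.986) and Thrsp (0.977) were most like Erbb3, with 12. Erbb3 was highest in Normal library 2, followed by PVR libraries 2 and 3.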

How the data were processed

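Polyadenylated RNA was measured in 3 Normal and 3 PVR libraries, with groups and numbers from the titles. The authors deposited 1 signal per gene symbol and library, which its values show to be read counts divided by 1 size factor per library. All values (100%) were whole multiples of 1 step within 0.001 reads, so reads were recovered. The submitters' processing notes list mm10 and DESeq2 and give neither a role. For the aligner, the read counter, strandedness and gene models, nothing is given in the sources used here. The totals were 15269983 to 19173187 reads, and 3 reads, the 95% upper bound for a count of 0, correspond to 2.72 to 3.42 normalised counts. Intervals and floors cover counting error only.

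The test was limma 3.58.1 (R 4.3.3) with trend and robust moderation on log2(normalised count + 1) of 15766 genes passing filterByExpr of edgeR (minimum count 10), adjusted by Benjamini-Hochberg over all of them (threshold 0.05). An adjusted p given alone is limma's. Alternatives were edgeR 4.0.16 quasi-likelihood, DESeq2 1.42.0 and limma-voom on recovered reads, and other pseudocounts, filters, scalings and libraries. The scripts were tested on simulated data. Replicate numbers may pair libraries. Deviations of same-numbered libraries from their group means correlated across genes (r of 0.206, 0.195 and 0.179). For differently numbered libraries r was -0.137 to -0.0689. Deviations from a group mean cancel out over its libraries, so these negative values follow from the positive ones and add no support. The main test, with its SEs, intervals and p-values, did not pair libraries. With the replicate number as a block, an alternative, 5328 genes were called, against 4858 in the main test.

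Coordinates and exon lengths are from GENCODE M21 (GRCm38, also called mm10). The members and lists were chosen with earlier results of these data known. Named genes were the 10 members and, from each list, up to 4 called genes per direction with the smallest p, or all where 5 or fewer were called, except 1 that is not reported here. For likeness, the 3 genes with the highest r to each of Egfr, Erbb3 and Hbegf were named. Another 17 genes were named after their values were seen: Egf, Nrg4, Adam8, Adam10, Adam15, Adam17, Rhbdf1, Frmd8, Cd44, Errfi1, Ptprk, Dusp5, Egr3, Ier3, Fosl1, Fos and Egr1. The marker sums without Csf1r and without Kit were also chosen after seeing the data. Marker lists not described in the report gave no call in either direction for 8 endothelial and 9 photoreceptor genes, 2 higher of 2 tested T and NK cell genes, 1 higher and 1 lower of 7 Mueller glia and astrocyte genes, 2 higher and 1 lower of 8 Schwann cell genes and 2 higher and 2 lower of 8 melanocyte genes. Tables and plots were made in Python 3.11.15 with matplotlib 3.10.9, numpy 2.4.6, pandas 2.3.3 and scipy 1.17.1.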

Additional observations from a re-analysis of the deposited data

How the results depend on the processing

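The counts of called members were 5 higher and 1 lower with edgeR, DESeq2, limma-voom, both other pseudocounts, no filter, both other scalings and without Normal replicate 2 and PVR replicate 3 together. With a filter at 1 CPM, which removed Areg, and with replicates 1 and 2 only, 4 were higher and 1 lower. With the replicate number as a block they were also 5 and 1, and the block ended the calls of Nras and Fosl1, as given with those genes, and no other call named in the report. Against a minimum change of 1.5-fold, 3 members were higher and 0 lower, 11 pathway genes were higher and 1 lower, and 1481 genes were called in all, against 4858. With replicates 1 and 2 only, 7 pathway genes were lower. Leaving out 1 library at a time gave 3 to 5 members higher and 1 lower, 20 to 26 pathway genes higher, 8 to 14 lower, and 3566 to 4775 genes in all. The 3 came without Normal replicate 3, PVR replicate 1 or PVR replicate 2. The log2 change of Erbb3 turned negative with edgeR (-0.16), DESeq2 (-0.15), replicates 1 and 2 only (-0.44), and without Normal replicate 1 (-0.089) or 3 (-0.27) or PVR replicate 2 (-0.018), and with single libraries left out it ranged from -0.27 to 0.96. Scaling to library totals, which moved the median of all genes to -0.09, turned Nrg4 to -0.039, and so did replicates 1 and 2 only (-0.32) and leaving out Normal replicate 3 (-0.14) or PVR replicate 3 (-0.15). Egf turned to 0.22 without PVR replicate 1 and Fos to 0.098 without Normal replicate 1, against -0.69 and -0.93 without Normal replicate 2 and PVR replicate 3. The causes were not tested. Few reads limit Areg, Ereg, Nrg1, Erbb3 and Erbb4.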
